A study of Mus musculus with 18 samples.

Results

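The genes described here are readouts and effectors of canonical Wnt signalling in mouse cells taken through reprogramming to induced pluripotent stem (iPS) cells. They are the DNA-binding factors Lef1, Tcf7, Tcf7l1 and Tcf7l2, their partner Ctnnb1 (β-catenin), and the reported Wnt target genes Axin2, Nkd1, Lgr5, Sp5 and Cdx1. Each gene was read at the probe set annotated to its symbol with the highest mean over all arrays. Of the 10 genes, 9 were measured, with 1 probe set each, among 19937 genes with a probe set of a single symbol. The annotation used here lists no probe set for Tcf7, which was not analysed here.

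RNA was measured on 18 arrays, 3 in each of 6 groups. All iPS lines came from low-passage primary CD1 mouse embryonic fibroblasts (MEFs) infected with pMX retroviruses for Oct4, Klf4 and Sox2. EOS3F-24 is a partially reprogrammed line, and its 2i-converted form was treated in ES medium with LIF, a MEK inhibitor at 2 μM and a GSK inhibitor at 12 μM, for a time the labels do not give. EOS3F-28 and EOS3F-29 are fully reprogrammed lines, and J1 is a line of embryonic stem (ES) cells. The iPS clones and J1 were cultured with LIF on arrested feeders, and EOS3F-24, EOS3F-28 and EOS3F-29 also received puromycin at 1 μg/mL. The labels do not say whether feeders and puromycin were kept during 2i conversion. Any difference in them, the MEK inhibitor and the GSK inhibitor cannot be told apart in 2i-converted against partial cells. The low-passage MEFs grew in medium with serum, so in comparisons with MEFs these culture conditions and reprogramming cannot be told apart. The partial state is 1 line, and its features cannot be told apart from those of that line. J1 is a separate line, and its labels give no puromycin. In comparisons of iPS cells with J1, line, culture conditions and reprogramming cannot be told apart. In 2i-converted against full cells, the line, the inhibitors and the route to reprogramming cannot be told apart. Nothing in the labels says whether the 3 arrays of a group came from separate cultures, so the p-values measure array-to-array spread that may be technical.

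In the absence of Wnt, a cytoplasmic complex that holds Axin, Apc and the kinase GSK3 marks β-catenin protein for destruction. Wnt, or an inhibitor of GSK3 such as the one in 2i, stops this marking, and β-catenin accumulates, enters the nucleus and binds Tcf/Lef factors on DNA. Tcf7l1 (Tcf3 in the ES cell literature) acts mainly as a repressor of pluripotency genes in mouse ES cells, and release of this repression is part of how GSK3 inhibition maintains them. The arrays measured RNA, and stabilisation of β-catenin acts on the protein.

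Tcf/Lef factors recognise a short DNA motif whose core includes CTTTGA. Promoter windows are shown for the 3 measured Tcf/Lef genes and for the target gene Sp5. They run from 250 bases before to 50 bases after the RefSeq start in GRCm38.p6, 5′ to 3′ on the gene's strand. Capitals mark CTTTGA or its reverse complement TCAAAG. Lef1 is shown at starts 1 and 4 of the table, at chr3:131110047-131110346 and chr3:131156044-131156343 on the plus strand. Start 4 lies downstream of the other Lef1 starts. Tcf7l2 is shown at chr19:55741560-55741859 (first start, plus strand), Tcf7l1 at chr6:72788996-72789295 (minus strand) and Sp5 at chr2:70474673-70474972 (plus strand).
Lef1 start 1: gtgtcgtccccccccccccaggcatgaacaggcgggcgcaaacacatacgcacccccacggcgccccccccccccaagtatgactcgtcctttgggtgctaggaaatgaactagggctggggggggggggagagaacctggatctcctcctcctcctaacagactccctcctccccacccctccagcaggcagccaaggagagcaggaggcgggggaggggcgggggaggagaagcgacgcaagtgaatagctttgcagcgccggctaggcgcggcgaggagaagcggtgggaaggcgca
Lef1 start 4: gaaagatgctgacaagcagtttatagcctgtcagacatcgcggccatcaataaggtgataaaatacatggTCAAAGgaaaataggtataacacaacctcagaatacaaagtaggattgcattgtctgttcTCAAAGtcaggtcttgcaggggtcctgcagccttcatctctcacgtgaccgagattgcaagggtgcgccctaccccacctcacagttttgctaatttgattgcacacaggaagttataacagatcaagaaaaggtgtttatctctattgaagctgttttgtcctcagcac
Tcf7l2 start 1: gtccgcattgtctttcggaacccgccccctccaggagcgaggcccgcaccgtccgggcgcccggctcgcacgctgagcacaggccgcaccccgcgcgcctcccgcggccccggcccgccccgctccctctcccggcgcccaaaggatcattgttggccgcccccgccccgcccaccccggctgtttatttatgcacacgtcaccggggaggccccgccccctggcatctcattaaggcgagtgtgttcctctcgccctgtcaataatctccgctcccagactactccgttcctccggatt
Tcf7l1: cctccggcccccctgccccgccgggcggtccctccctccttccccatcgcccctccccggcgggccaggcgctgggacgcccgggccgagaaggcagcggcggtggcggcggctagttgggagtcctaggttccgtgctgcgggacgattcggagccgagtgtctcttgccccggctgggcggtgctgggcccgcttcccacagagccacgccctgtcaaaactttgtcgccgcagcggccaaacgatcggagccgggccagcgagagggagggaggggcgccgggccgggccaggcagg
Sp5: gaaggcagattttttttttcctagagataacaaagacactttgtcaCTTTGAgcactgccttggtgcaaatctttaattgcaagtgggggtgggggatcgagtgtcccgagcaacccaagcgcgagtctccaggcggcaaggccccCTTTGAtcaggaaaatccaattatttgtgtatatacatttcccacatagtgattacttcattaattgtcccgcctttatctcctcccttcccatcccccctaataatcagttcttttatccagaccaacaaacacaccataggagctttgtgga

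The Sp5 window holds the motif on the sense strand at 204 and 104 bases before the start. The Lef1 window at start 4 holds it on the antisense strand at 180 and 120 bases before the start. The windows shown for Lef1 start 1, Tcf7l2 start 1 and Tcf7l1 do not hold these letters. Nor do the windows of Lef1 starts 2 and 3 and Tcf7l2 start 2, which are not shown. Windows of 8 of the 10 genes were searched. Lgr5 had no window in the table, and Cdx1 was left out because chromosome 18 was not searched for these genes. Over the 14 windows searched, 2 (14.3%) held a match, against 5257 of 32851 windows in the whole table (16.0%), where no chromosome was left out. At least 2 matches, as in the Sp5 window and the Lef1 window at start 4, were present in 568 windows of the table (1.73%). The number 2 was taken from these windows themselves, so that share does not measure how unusual they are. A match is a description of the sequence and not a measured binding site.

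Levels are deposited log2 RMA values, and differences of group means are given in the same log2 units with their SE; errors marked SD are of levels. A gene was called at an adjusted p under 0.05 (limma, Benjamini-Hochberg over all 19937 genes). Array medians lay between 3.92 and 4.11, and replicate arrays correlated over probe sets at 0.971 to 0.987. The mean level of 8 pluripotency markers was 9.11 to 9.43 on 2i-converted arrays, 5.33 to 5.99 on partial arrays, 8.35 to 8.82 in EOS3F-28, 8.27 to 8.79 in EOS3F-29, 9.12 to 9.45 in J1 and 3.44 to 3.56 in MEFs. Of these markers Pou5f1 (Oct4), also an introduced factor, went the other way, averaging 10.96 in partial and 9.64 in 2i-converted cells. The other markers averaged lower in partial than in 2i-converted cells, among them Tdgf1 (7.74 against 10.40). The mean of 9 measured fibroblast or feeder markers was 6.05 to 7.51 on 2i-converted arrays, 6.53 to 8.16 on partial arrays, 6.37 to 7.77 in EOS3F-28, 6.71 to 8.45 in EOS3F-29, 6.30 to 7.47 in J1 and 9.38 to 9.65 in MEFs. Replicate 1 had the highest fibroblast or feeder level of its group in all 5 groups other than MEFs. On such bulk samples, fewer cells of a type and less RNA per cell cannot be told apart.

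Among the DNA-binding factors, Lef1 and Tcf7l2 varied most over the groups. Lef1 (probe set 10496091), a factor that mainly activates with β-catenin, had values of 4.68, 4.54 and 4.36 in 2i-converted cells, 3.70, 3.85 and 4.08 in partial cells, 5.17, 5.16 and 5.33 in EOS3F-28, 5.31, 5.84 and 5.20 in EOS3F-29, 4.25, 4.45 and 4.53 in J1 and 3.75, 4.23 and 3.73 in MEFs. The levels formed 3 tiers without overlap, with both full lines at the top, 2i-converted and J1 cells in the middle, and MEFs and partial cells at the bottom. Within each tier the arrays of neighbouring groups overlapped. The Lef1 means in MEFs (3.91) and partial cells (3.88) lay under the median of all gene means (4.37). Without a detection call, Lef1 is not shown to lie above background there. Its folds against these groups below are ratios of array values.

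Tcf7l2 (probe set 10464084), a factor that can activate or repress Wnt targets, had values of 4.31, 4.24 and 4.34 in 2i-converted cells, 5.33, 5.37 and 5.27 in partial cells, 4.73, 4.64 and 4.86 in EOS3F-28, 4.97, 4.64 and 4.49 in EOS3F-29, 4.37, 4.52 and 4.36 in J1 and 5.34, 5.46 and 5.44 in MEFs. MEFs and partial cells overlapped and stood above every other array, and all 2i-converted arrays lay below all arrays of the other groups. EOS3F-28, EOS3F-29 and J1 overlapped as neighbours in between. The group means spanned 1.12 for Tcf7l2 and 1.57 for Lef1.

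Tcf7l1 (probe set 10545458) had values of 5.11, 4.95 and 4.85 in 2i-converted cells, 5.47, 5.59 and 5.16 in partial cells, 5.48, 5.31 and 5.62 in EOS3F-28, 5.34, 5.42 and 5.40 in EOS3F-29, 4.93, 4.92 and 4.75 in J1 and 4.94, 5.28 and 5.14 in MEFs. Arrays of the full lines lay above those of MEFs, 2i-converted cells and J1, and the partial arrays overlapped both the full lines and MEFs. MEF, 2i-converted and J1 arrays overlapped as neighbours. Ctnnb1 (probe set 10590325) RNA had the smallest span of the 9 genes, 0.17, with means of 8.89 ± 0.08 in 2i-converted cells, 8.90 ± 0.04 in partial cells, 8.77 ± 0.12 in EOS3F-28, 8.75 ± 0.02 in EOS3F-29, 8.75 ± 0.10 in J1 and 8.91 ± 0.06 in MEFs (SD, n = 3 each).

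**Figure D1:**
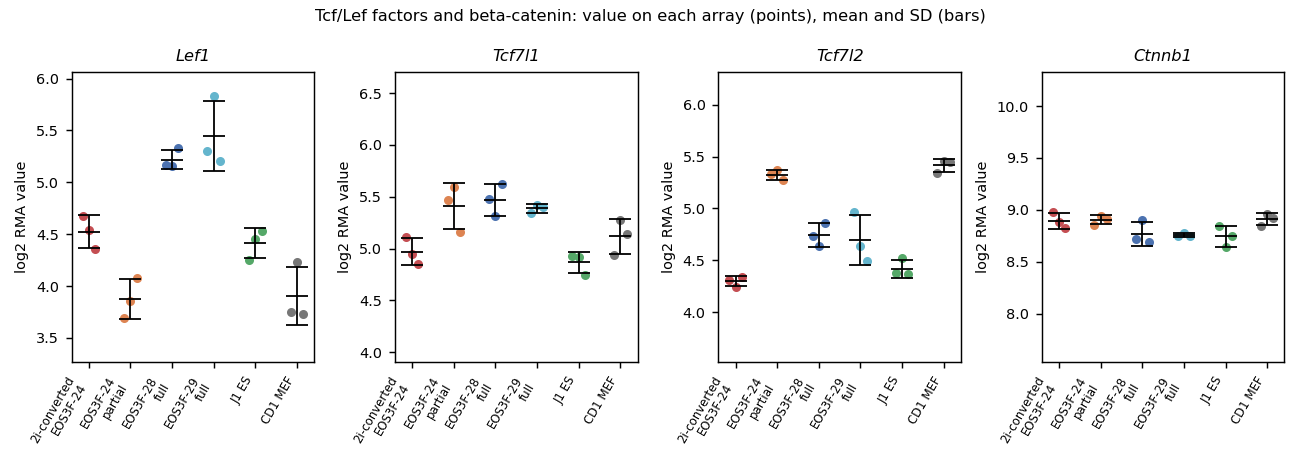
Log2 array values (y axis) of Lef1, Tcf7l1, Tcf7l2 and Ctnnb1 on each array (points) by group (x axis), with group means and SD as bars. Lef1 is highest in EOS3F-28 and EOS3F-29, Tcf7l2 is highest in MEFs and partial cells and lowest in 2i-converted cells, and the Ctnnb1 group means span 0.17.

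The target genes varied less than Lef1 and Tcf7l2, apart from Lgr5. Lgr5 (probe set 10372503), an R-spondin receptor that marks intestinal stem cells, had values of 3.49, 3.38 and 3.50 in 2i-converted cells, 3.64, 3.23 and 3.17 in partial cells, 3.49, 3.16 and 3.44 in EOS3F-28, 3.44, 3.37 and 3.30 in EOS3F-29, 3.39, 3.43 and 3.34 in J1 and 5.34, 4.23 and 6.41 in MEFs. Every MEF array lay above every other array, and the MEF arrays differed widely among themselves (SD 1.09, n = 3). The other 5 groups overlapped as neighbours in the order of levels, with means of 3.35 to 3.46, near the lower quartile of all gene means (3.44). The deposited values carry no detection call, so Lgr5 is not shown to lie above background outside MEFs, and no fold is given for it.

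Axin2 (probe set 10382228), a scaffold of the destruction complex and a widely used feedback target, had values of 4.16, 4.08 and 3.98 in 2i-converted cells, 4.01, 3.97 and 3.75 in partial cells, 4.04, 3.97 and 4.14 in EOS3F-28, 4.40, 4.14 and 4.02 in EOS3F-29, 4.44, 4.35 and 4.47 in J1 and 3.71, 3.81 and 3.96 in MEFs. J1 had the highest mean and MEFs the lowest, and all neighbours in the order overlapped. Every J1 array lay above every 2i-converted, EOS3F-28, partial and MEF array, and J1 overlapped only EOS3F-29. Nkd1 (probe set 10573779), which binds Dishevelled and dampens the signal, averaged 4.55 ± 0.12 in 2i-converted cells, 4.31 ± 0.07 in partial cells, 4.43 ± 0.14 in EOS3F-28, 4.57 ± 0.14 in EOS3F-29, 4.68 ± 0.06 in J1 and 4.50 ± 0.13 in MEFs (SD, n = 3 each). Its neighbours in the order also overlapped.

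Sp5 (probe set 10472688), a zinc-finger factor, averaged 3.94 ± 0.09 in 2i-converted cells, 3.79 ± 0.04 in partial cells, 3.83 ± 0.33 in EOS3F-28, 4.05 ± 0.35 in EOS3F-29, 4.07 ± 0.21 in J1 and 3.86 ± 0.15 in MEFs (SD, n = 3 each). Cdx1 (probe set 10459153), a homeobox factor of axial patterning and intestine, averaged 5.07 ± 0.04 in 2i-converted cells, 5.07 ± 0.09 in partial cells, 4.98 ± 0.21 in EOS3F-28, 5.06 ± 0.08 in EOS3F-29, 5.15 ± 0.12 in J1 and 4.72 ± 0.22 in MEFs (SD, n = 3 each). For both genes all neighbouring groups overlapped. The means of Axin2, Lef1, Tcf7l2, Lgr5, Nkd1 and Sp5 over all arrays were under 5, where RMA compresses differences. Axin2 (4.08) and Sp5 (3.92) also lay under the median of all gene means (4.37). Without a detection call, Axin2 and Sp5 are not shown to lie above background.

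**Figure D2:**
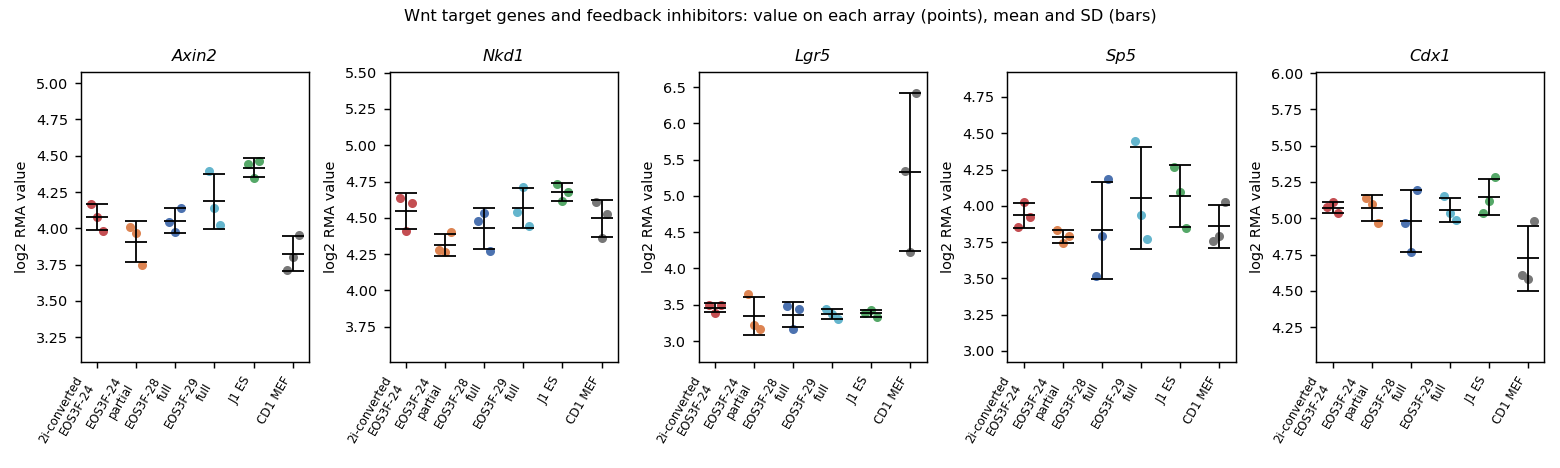
Log2 array values (y axis) of Axin2, Nkd1, Lgr5, Sp5 and Cdx1 on each array (points) by group (x axis), with group means and SD as bars. Lgr5 is higher on all 3 MEF arrays than on any other array, and the group means of Axin2, Nkd1, Sp5 and Cdx1 span 0.59, 0.36, 0.28 and 0.42.

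The comparison of 2i-converted with partial EOS3F-24 cells asks what conversion with a GSK inhibitor present did to these genes. All 3 measured Tcf/Lef genes changed. Lef1 was 1.57-fold higher in 2i-converted cells (0.65 ± 0.16, 95% interval 0.30 to 1.00, adjusted p = 0.00763). Tcf7l2 was 2.04-fold lower (-1.03 ± 0.11, interval -1.26 to -0.80, adjusted p = 2.23e-06), and Tcf7l1 was 1.35-fold lower (-0.44 ± 0.12, interval -0.70 to -0.18, adjusted p = 0.0156). For these genes every 2i-converted array lay on 1 side of every partial array. Neither Ctnnb1 nor any of the 5 target genes was called. Axin2, Sp5 and Lgr5 are not shown to lie above background in these cells, so their missing calls do not show a lack of response. The Axin2 difference was 0.17 (interval -0.06 to 0.40, adjusted p = 0.338) and its arrays overlapped at 3.98 in 2i-converted cells and 4.01 in partial cells; after centring on housekeeping genes, which moved the median of all genes by -0.19, the difference was -0.022. The Nkd1 difference was 0.23 (interval 0.01 to 0.46, adjusted p = 0.138) and that of Sp5 was 0.15 (interval -0.21 to 0.51, adjusted p = 0.635), in both cases with the 2i-converted arrays above the partial ones, although Sp5 gave -0.041 after centring on housekeeping genes. Lgr5 differed by 0.11 (interval -0.57 to 0.79), Cdx1 by 0.01 (interval -0.25 to 0.26) and Ctnnb1 by -0.01 (interval -0.20 to 0.18), with adjusted p of 0.875, 0.985 and 0.957.

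In that comparison 22.4% of all genes were called, 9.36% as higher and 13% as lower, and 3 of the 9 genes were called, 1 as higher and 2 as lower. The median absolute difference was 0.17 over the 9 genes and 0.17 over all genes. The mean fibroblast or feeder level overlapped between 2i-converted arrays (6.05 to 7.51) and partial arrays (6.53 to 8.16), and its part in these differences was not tested. Without replicate 1 of every group but MEFs, the Lef1 difference was 0.48 with an adjusted p of 0.108, and the Tcf7l1 adjusted p was 0.0532. The Tcf7l1 call was also lost without replicate 2 or 3 of the 2i-converted cells (adjusted p = 0.0523 and 0.0762) or replicate 1 or 2 of the partial cells (0.0575 and 0.0964).

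Set against the fully reprogrammed lines, 2i-converted cells were lower in all 3 factor genes. Lef1 differed by -0.81 ± 0.14 (interval -1.11 to -0.51, adjusted p = 0.00287), Tcf7l1 by -0.46 ± 0.11 (adjusted p = 0.0173) and Tcf7l2 by -0.43 ± 0.09 (adjusted p = 0.0128). These were 3 of the 9 genes, all lower, where 5.16% of all genes were called, 3.96% as higher and 1.2% as lower. Axin2 differed by -0.04 (adjusted p = 0.882). The Tcf7l1 call was lost when EOS3F-29 alone stood for the full lines (adjusted p = 0.095) and without replicate 2 or 3 of the 2i-converted cells (0.0975 and 0.132). The Tcf7l2 call was lost when only the arrays compared were fitted (adjusted p = 0.0626), with EOS3F-29 alone (0.0619), without replicate 1 of every group but MEFs (0.0774) and without 2i-converted replicate 2 (0.0933) or 3 (0.0565).

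Against J1 cells, limma called 0 of the 9 genes in 2i-converted cells, and 1 had an unadjusted p under 0.05, where 1.72% of all genes were called. That gene was Axin2, with a difference of -0.34 ± 0.11 (interval -0.58 to -0.11, adjusted p = 0.158). All its 2i-converted arrays lay below all J1 arrays. The differences of Lef1 (0.11, interval -0.23 to 0.46, adjusted p = 0.925), Tcf7l1 (0.11, interval -0.16 to 0.37, adjusted p = 0.885) and Tcf7l2 (-0.12, interval -0.35 to 0.11, adjusted p = 0.817) had intervals that held 0. Full iPS cells were higher than J1 in Lef1 (0.92 ± 0.14, adjusted p = 0.00104) and Tcf7l1 (0.56 ± 0.11, adjusted p = 0.00493), the 2 genes called of 9, both higher, where 4.76% of all genes were called, 1.29% as higher and 3.47% as lower. Axin2 (-0.30, adjusted p = 0.0888) and Tcf7l2 (0.30, adjusted p = 0.0821) were not called there. The Tcf7l1 call was lost without J1 replicate 3 (adjusted p = 0.0569). Axin2 was called without EOS3F-29 replicate 1 (0.041), and Tcf7l2 without EOS3F-29 replicate 3 (0.0331) or after cyclic loess (0.0246). The 2i-converted and full comparisons share the J1 arrays.

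**Figure D3:**
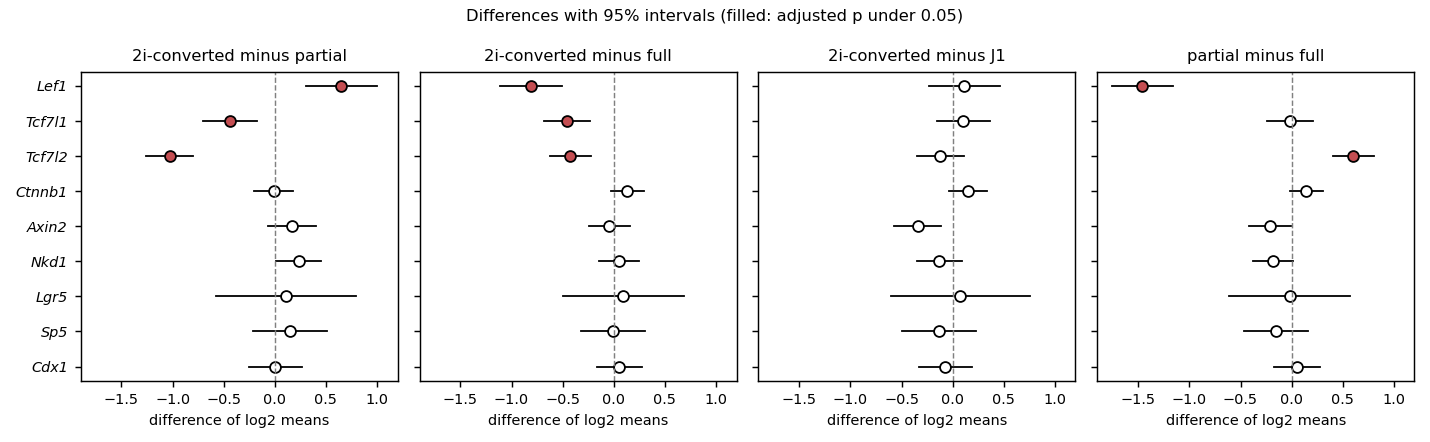
Log2 differences (x axis) with 95% intervals for the 9 genes (rows) in 4 comparisons, filled where called: 2i-converted against partial, against full and against J1 cells, and partial against full cells. For 2i-converted against partial cells the intervals of Lef1, Tcf7l1 and Tcf7l2 are 0.30 to 1.00, -0.70 to -0.18 and -1.26 to -0.80, and against J1 the intervals of these 3 genes hold 0.

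Partial cells set against J1 differed in 5 of the 9 genes, 2 higher and 3 lower, where 22.9% of all genes were called, 13.3% as higher and 9.65% as lower. Tcf7l2 (0.90 ± 0.11, adjusted p = 9.01e-06) and Tcf7l1 (0.54 ± 0.12, adjusted p = 0.00352) were higher in partial cells. Axin2 (-0.51 ± 0.11, adjusted p = 0.0023), Lef1 (-0.54 ± 0.16, adjusted p = 0.0244) and Nkd1 (-0.36 ± 0.11, adjusted p = 0.0185) were lower. The calls of Lef1 and Nkd1 were lost in 5 and 6 of the alternatives tried, with adjusted p up to 0.106 and 0.149: both without replicate 1 of every group but MEFs, J1 replicate 3 and partial replicate 1 or 2, Lef1 also without J1 replicate 2, and Nkd1 also without J1 replicate 1 and after centring on housekeeping genes.

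Reprogramming to the full state was set against MEFs. Lef1 was 2.69-fold higher in full iPS cells (1.43 ± 0.14, adjusted p = 6.16e-07), Tcf7l2 was 1.62-fold lower (-0.69 ± 0.09, adjusted p = 1.89e-05) and Lgr5 was lower (-1.96 ± 0.28, adjusted p = 2.99e-05). Smaller rises were called for Axin2 (0.29 ± 0.10, adjusted p = 0.0225), Tcf7l1 (0.31 ± 0.11, adjusted p = 0.0315) and Cdx1 (0.30 ± 0.11, adjusted p = 0.038). These made 6 of the 9 genes, 4 higher and 2 lower, where 35% of all genes were called, 17.1% as higher and 17.8% as lower. After centring on housekeeping genes, which moved the median of all genes by -0.14, 1 gene was called as higher and 3 as lower. The added fall was that of Ctnnb1, at -0.33 (adjusted p = 0.00779) against -0.15 without centring (adjusted p = 0.150). The small rises were lost in 7 alternatives for Axin2, 7 for Tcf7l1 and 11 for Cdx1, with adjusted p up to 0.491 for Axin2, 0.464 for Tcf7l1 and 0.542 for Cdx1, all after centring on housekeeping genes. They were also lost without MEF replicate 1 (0.122, 0.195 and 0.171) or without replicate 1 of every group but MEFs (0.0781, 0.0591 and 0.104). Without MEF replicate 2 the calls of Axin2 (0.067) and Cdx1 (0.187) were lost, and without MEF replicate 3 that of Tcf7l1 (0.0704). Without single full arrays the adjusted p was 0.0556 (EOS3F-29 replicate 2) and 0.0705 (EOS3F-28 replicate 3) for Tcf7l1, and 0.0528 to 0.0871 for Cdx1 (replicates 1 and 2 of EOS3F-29, 1 and 3 of EOS3F-28). The fibroblast or feeder level was 6.37 to 8.45 over the full iPS arrays and 9.38 to 9.65 in MEFs, and its part in the Lgr5 and Tcf7l2 differences was not tested.

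Partial cells set against the same MEF arrays differed in Lgr5, which was lower (-1.98 ± 0.32, adjusted p = 0.000195), and in Cdx1 (0.35 ± 0.12, adjusted p = 0.0493), 2 of the 9 genes where 23.7% of all genes were called, 13.7% as higher and 10% as lower. After centring on housekeeping genes, which moved the median of all genes by -0.13, 0 were called as higher and 2 as lower. The added fall was that of Nkd1, at -0.35 (adjusted p = 0.0453) against -0.18 without centring (adjusted p = 0.250). Cyclic loess gave 0 higher and 1 lower. Lef1 differed by -0.03 (adjusted p = 0.927), Tcf7l2 by -0.09 (adjusted p = 0.624), Axin2 by 0.08 (adjusted p = 0.663) and Tcf7l1 by 0.29 (adjusted p = 0.104). The Cdx1 call was lost under most alternatives, with adjusted p of 0.0617 to 0.461 where it was lost, among them each partial replicate and MEF replicates 1 and 2 left out. Tcf7l1 was called without partial replicate 3 (0.03).

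The partial and full states were also set against each other. Lef1 was 2.75-fold lower in partial cells (-1.46 ± 0.14, adjusted p = 9.77e-07), and Tcf7l2 was 1.52-fold higher (0.60 ± 0.09, adjusted p = 0.000173). These were 2 of the 9 genes, where 18.6% of all genes were called, 12.8% as higher and 5.78% as lower. Axin2 (-0.21, adjusted p = 0.147) and Tcf7l1 (-0.02, adjusted p = 0.936) were not called. The fibroblast or feeder level overlapped between partial (6.53 to 8.16) and full arrays (6.37 to 8.45). Between the full lines, EOS3F-28 against EOS3F-29, limma called 0 of the 9 genes and 0 had an unadjusted p under 0.05, where 0.532% of all genes were called. There Lef1 differed by -0.23 (adjusted p = 0.67), Axin2 by -0.13 (0.727), Tcf7l1 by 0.08 (0.874) and Tcf7l2 by 0.04 (0.928).

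The wider pathway was read from a list of 116 genes in 7 roles, of which 113 were measured, Ccn1 among them through its older symbol Cyr61. In 2i-converted against partial cells, 13 rose, 16 fell and 84 were not called (25.7% called, against 22.4% of all genes), with a median difference of -0.02 against 0.00 over all genes. Of 19 ligands 1 fell, and of 6 genes of ligand release and R-spondins 1 rose. Among 17 receptors and co-receptors 3 rose and 2 fell, and among 17 inhibitors 2 rose and 1 fell. The 19 genes of the relay and destruction complex held 2 rises and 4 falls, the 13 nuclear cofactors 1 rise and 5 falls, and the 22 other reported targets 4 rises and 3 falls. After centring on housekeeping genes the list had 8 rises and 31 falls.

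The largest rises in that comparison were Sall4, a zinc-finger pluripotency factor (1.99 ± 0.11, adjusted p = 5.01e-10), Sfrp2, a secreted Wnt-binding protein (1.21 ± 0.29, adjusted p = 0.00435), Dvl2, a Dishevelled protein (1.15 ± 0.12, adjusted p = 1.33e-06), and Id2, an inhibitor of basic helix-loop-helix factors (1.14 ± 0.32, adjusted p = 0.0141). The largest falls were Cd44, a hyaluronan receptor (-2.11 ± 0.41, adjusted p = 0.000951), Jag1, a Notch ligand (-0.90 ± 0.16, adjusted p = 0.000522), Bcl9, a β-catenin coactivator (-0.87 ± 0.14, adjusted p = 0.00013), and Gsk3b, a kinase of the destruction complex and a target of GSK inhibitors (-0.76 ± 0.16, adjusted p = 0.00211). Gsk3b RNA had values of 5.56, 5.22 and 5.78 in 2i-converted cells, against 6.39, 6.36 and 6.09 in partial cells. The Gsk3b arrays of 2i-converted and partial cells did not overlap. J1 cells, whose labels give no inhibitors, had Gsk3b values of 5.64, 5.46 and 5.54, within the 2i-converted range. For Gsk3b, EOS3F-28 arrays lay between the 2i-converted and partial arrays, EOS3F-29 arrays overlapped both, and MEF arrays lay above all others. The part of the GSK inhibitor in the Gsk3b difference was not tested. The Id2 call was lost without 2i-converted replicate 2 (adjusted p = 0.0851) or partial replicate 2 (0.0648) or 3 (0.0565).

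Against MEFs, partial cells had 12 rises and 23 falls in the list and full cells 20 rises and 28 falls, in comparisons that share the MEF arrays. These were 31.0% and 42.5% of the list, against 23.7% and 35% of all genes. After centring on housekeeping genes the list had 6 rises and 28 falls in partial cells and 7 rises and 40 falls in full cells, and cyclic loess gave 8 rises and 28 falls in partial cells. The median differences were 0.06 in partial cells and 0.02 in full cells, against 0.04 and 0.03 over all genes. Receptors held 0 rises and 9 falls of 17 in partial cells, and 2 rises and 7 falls in full cells. In partial cells the largest rises were the corepressor Tle4 (1.77), the inhibitor Wif1 (1.02) and Sall4 (0.94), and the largest falls were the matricellular genes Ccn4 (-3.07), Ccn1 (-1.88) and Ccn5 (-1.82), with adjusted p between 8.04e-07 and 0.00671. In full cells the largest rises were Sall4 (3.18), Tle4 (2.33) and Ascl2, a helix-loop-helix factor (1.09), and the largest falls Ccn4 (-3.29), Jag1 (-2.42) and the ligand Wnt5a (-2.00), with adjusted p between 1.21e-13 and 0.000936. Fibroblast or feeder markers were also highest in MEFs, and their part in these falls was not tested.

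Partial against full cells had 16 rises and 13 falls in the list (25.7% called, against 18.6% of all genes), and 7 rises and 17 falls after cyclic loess, with a median of 0.02 against 0.01 over all genes. The nuclear cofactors held 4 rises and 3 falls of 13, the relay 4 rises and 1 fall of 19, and the receptors 2 rises and 4 falls of 17. The largest rises were Cd44 (1.06, adjusted p = 0.0449), the short Groucho protein Tle5 (0.92, adjusted p = 1.52e-05) and Jag1 (0.67, adjusted p = 0.00229). The largest falls were Sall4 (-2.24, adjusted p = 3.17e-11), Sfrp2 (-1.33, adjusted p = 0.000846) and the R-spondin receptor Lgr4 (-1.17, adjusted p = 1.47e-06). Partial and full arrays overlapped for Cd44, whose call was lost in 11 alternatives (adjusted p = 0.0696 to 0.204), among them each partial replicate and replicates 2 and 3 of both full lines left out. The count of called list genes was 14 without partial replicate 2 and 17 without partial replicate 3.

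**Figure D4:**
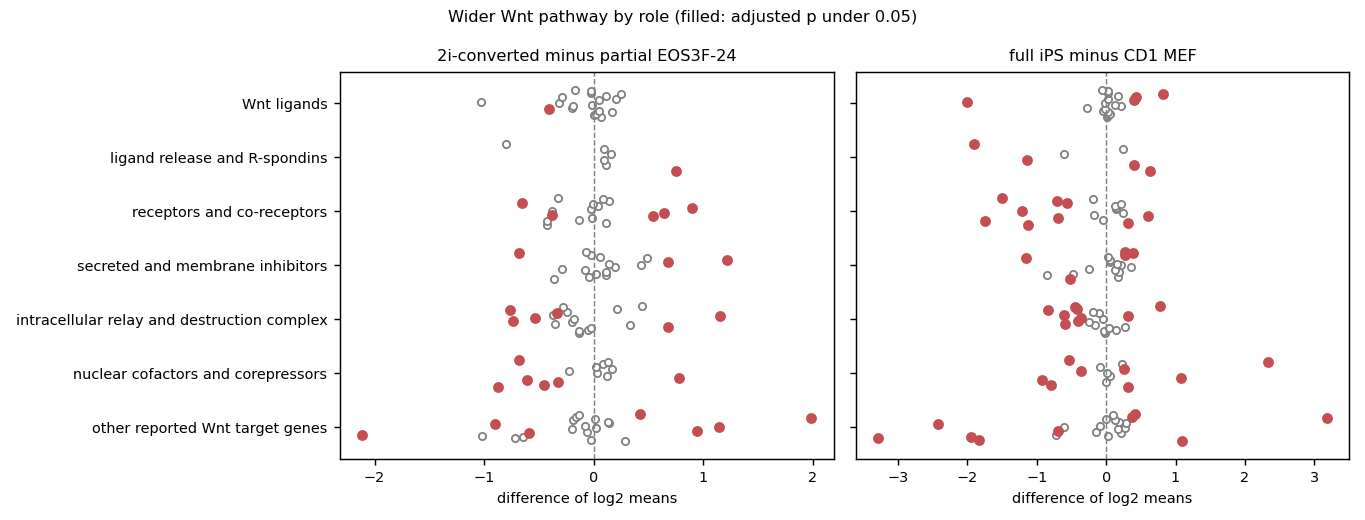
Log2 differences (x axis) of the 113 measured pathway genes (points) by role (rows), for 2i-converted against partial cells and for full iPS cells against MEFs, with called genes filled. Sall4 (1.99) and Cd44 (-2.11) are the outermost called genes in the first comparison, and Sall4 (3.18) and Ccn4 (-3.29) in the second.

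Over the 18 arrays, the genes with the pattern most like that of a factor or target were found among 3464 genes whose group means span at least 1. Lef1 was most like Car4 (r = 0.927) and Rbm47 (0.908), Tcf7l2 most like Gnaq (0.980) and Plxnb2 (0.978), and Lgr5 most like Emcn (0.977) and Ccn3 (0.967). Among the 9 genes themselves, r was largest in size for Axin2 with Cdx1 (0.702), Tcf7l1 with Nkd1 (-0.646), Axin2 with Tcf7l2 (-0.610) and Axin2 with Sp5 (0.609). Next were Tcf7l2 with Nkd1 (-0.543), Tcf7l2 with Lgr5 (0.532), Axin2 with Ctnnb1 (-0.525) and Lef1 with Ctnnb1 (-0.523). Lef1 with Tcf7l2 gave -0.500. These points share arrays, normalization and the 6 groups, and the correlations are descriptions.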

How the data were processed

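RNA from 18 samples was hybridised to arrays after whole-transcript sense target labelling, per the labels' protocols. Each probe set has a deposited log2 value; per the submitters' processing notes, RMA made them. RMA corrects background, normalizes arrays to a like distribution and summarises probes, so a shift common to most genes is removed. Not given in the sources used here are its version, the genome build and the annotation. Of 34760 probe sets, 21640 had 1 gene symbol, 1321 had several and 11799 were not listed. Each of 19937 genes was read at its highest-mean probe set, which mattered for 954 genes.

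Sample titles gave groups and replicate numbers. limma 3.58.1 (lmFit and eBayes, R 4.3.3) estimated 1 mean for each group from all 18 arrays together, and 9 contrasts were tested. Full iPS stands for both full lines averaged. The script was tested on simulated data. With 3 arrays a group, their number limits the precision. Alternatives changed the probe set rule, normalization, filter on genes with a mean under 5, arrays fitted, moderation, full line and replicates.

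The genes and lists were chosen with earlier results of these data known. Named were all 10 genes, the 4 largest called rises and falls of the wider list for 2i-converted against partial cells (3 for other comparisons), and the 2 most alike genes by Pearson's r. Equal replicate numbers pair arrays by their deviations from group means for 2i-converted against partial (r = 0.383, 0.140 and 0.122) and against J1 cells (0.563, 0.454 and 0.150), EOS3F-28 against EOS3F-29 (0.542, 0.639 and 0.149) and partial against J1 cells (0.208, 0.242 and 0.223). This pairing comes from the values, not the labels.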

Additional observations from a re-analysis of the deposited data

Results flagged for a closer look

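Among the genes named here, 12 had a change from MEFs that differed between partial and full iPS cells. Both changes use the same MEF arrays, so the test of the difference is the contrast of partial with full cells (limma, adjusted p under 0.05). That contrast called 2 of the 9 Wnt target and Tcf/Lef genes, 29 of the 113 genes of the wider list and 3702 of all genes. Cd44, Tle5, Jag1, Sall4, Sfrp2 and Lgr4 were named because they were largest in it, so they are a selection. Dvl2 and Bcl9 were named from 2i-converted against partial cells, and Tle4 and Wif1 from partial cells against MEFs. Those comparisons share the partial arrays with this contrast, so these genes are a selection too. The change was smaller or more negative in partial cells for Lef1 (-1.46), Sall4 (-2.24), Sfrp2 (-1.33), Lgr4 (-1.17), Dvl2 (-0.77, adjusted p = 2.83e-05) and Tle4 (-0.56, adjusted p = 0.0133). It was higher in partial cells for Cd44 (1.06), Tle5 (0.92), Jag1 (0.67), Wif1 (0.64, adjusted p = 0.000501), Tcf7l2 (0.60) and Bcl9 (0.40, adjusted p = 0.0231). The Cd44 call was lost in 11 alternatives.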

How the results depend on the processing

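Among single genes, 524 of the values with an array left out and 566 of those under other settings kept direction and side of the threshold. The calls of Tcf7l2 in 2i-converted against partial cells and of Lgr5 against MEFs held under every alternative that kept the gene. So did those of Lef1 and Tcf7l2 in full iPS cells against MEFs and in partial against full cells. Leaving out genes with a mean under 5 removed Lef1, Tcf7l2 and Lgr5, so these calls were not tested there. Signs turned only for values not called. After centring on housekeeping genes, Axin2 was -0.022, Cdx1 -0.18, Sp5 -0.041 and Lgr5 -0.078 in 2i-converted against partial cells. Axin2 was -0.087 in partial cells against MEFs, Lef1 -0.025 and Tcf7l1 -0.032 in 2i-converted cells against J1, and Tcf7l2 -0.0057 between the full lines. Cyclic loess gave -0.0036 for Axin2 in partial cells against MEFs. EOS3F-29 alone gave 0.021 for Tcf7l1 in partial against full cells, and EOS3F-28 alone gave 0.023 for Axin2 in 2i-converted against full cells. Without replicate 1 of every group but MEFs, Lef1 was 0.060 in partial cells against MEFs and -0.043 in 2i-converted cells against J1. With single arrays left out, ranges that crossed 0 were -0.088 to 0.0088 for Axin2 in 2i-converted against full cells, -0.044 to 0.041 for Cdx1 and -0.053 to 0.022 for Ctnnb1 in 2i-converted against partial cells, -0.13 to 0.13 for Lef1 in partial cells against MEFs, -0.11 to 0.10 for Tcf7l1 in partial against full cells and -0.058 to 0.18 for Tcf7l2 between the full lines. The cause was not tested.

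Leaving out genes with a mean under 5 removes 6 of the 9 genes, so called genes fell to 1 in 2i-converted against partial cells, 1 in partial cells against MEFs, 2 in full cells against MEFs, 0 in partial against full cells, and 1 in each of 2i-converted against full, partial against J1 and full against J1 cells. The pathway list then gave 20 in partial and 27 in full cells against MEFs. Partial cells against MEFs gave 1 gene with every probe set, cyclic loess, only the arrays compared and trended robust moderation, and 2i-converted against full cells 1 with EOS3F-29 alone. Single arrays left out gave 2 to 3 called genes in 2i-converted against partial cells, 1 to 3 in 2i-converted against full and full against J1 cells, 1 to 2 in partial and 3 to 6 in full cells against MEFs, and 3 to 5 in partial cells against J1. Without replicate 1 of every group but MEFs, 1 gene was called in 2i-converted against partial cells and 1 in partial cells against MEFs, and 3 in full cells against MEFs and in partial cells against J1. For the pathway list, single arrays left out gave 23 to 35 in partial cells against MEFs and 14 to 36 in partial against full cells. With the replicate block, 3 genes were called in 2i-converted against partial cells and 38 of the pathway list, and no call of a named gene changed in any comparison. Dim probe sets limit the precision.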
